A study of Homo sapiens with 20 samples.

Results

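The zinc finger genes of chromosome 19 were taken as the protein-coding genes on that chromosome whose symbol is ZNF followed by a number and whose mean level over the 20 libraries was at least 1 CPM (the count of a gene scaled to a library total of 1e6 counts). The rule gave 229 genes, of 250 coding genes with such a name on the chromosome and of 60271 genes in the table. The remaining 21 had a mean below 1 CPM, and 1 of them had 0 counts in every library. Just inside the limit lay ZNF20 at 1.17 CPM, and just outside it lay ZNF728 at 0.977 CPM. The rule used the mean level only, and not any difference between groups. Each of the 229 was tested. For 2 of them the mean reached 1 CPM through 1 group, since it was 0.565 CPM without the 72 h libraries in ZNF114 and 0.940 CPM without the controls in ZNF20. The high level of those groups is therefore part of the choice of these 2 genes.

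The libraries were made from MDA-MB-468, a breast cancer cell line that carries many copies of the EGFR gene. One group was an untreated control (CTR), and the other groups were given EGF at 50 ng/mL for 12, 24, 48 or 72 h, which in this line induces an epithelial to mesenchymal transition (EMT). Per the labels the cells were grown for 24 h and deprived of serum for 24 h before EGF, and all groups were seeded and harvested at the same time, so that they differ in when EGF was added. There were 4 biological replicates of each group from this 1 cell line.

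Most proteins of this family carry a row of C2H2 zinc fingers that bind DNA and, near the start of the protein, a KRAB domain. The KRAB domain binds the scaffold TRIM28 (KAP1), which brings in the histone methyltransferase SETDB1, HP1 proteins and the NuRD complex, and so silences the bound DNA. Many of the proteins bind retrotransposons. The genes arose by tandem duplication and lie in clusters on chromosome 19, where neighbours are often close copies of each other.

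The finger unit that repeats along these proteins is shown for 3 genes of the cluster described first below, ZNF91, ZNF93 and ZNF681. It is the first unit of 28 codons found in the longest coding transcript of GENCODE 29 (hg38), with the codons of the zinc-binding cysteines and histidines in capitals. In all 3 genes it lies in exon 4, the last exon, at chr19:23362262-23362345 on the minus strand for ZNF91, chr19:19933478-19933561 on the plus strand for ZNF93, and chr19:23744869-23744952 on the minus strand for ZNF681.
ZNF91: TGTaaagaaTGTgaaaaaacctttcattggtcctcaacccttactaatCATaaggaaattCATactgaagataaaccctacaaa
ZNF93: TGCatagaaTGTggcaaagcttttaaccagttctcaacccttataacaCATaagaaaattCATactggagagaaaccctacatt
ZNF681: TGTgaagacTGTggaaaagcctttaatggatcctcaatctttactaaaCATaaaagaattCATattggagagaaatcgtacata
Of the 84 bases, 64 were the same in ZNF91 and ZNF93, 65 in ZNF91 and ZNF681, and 62 in ZNF93 and ZNF681. Shared sequence bears on the counts. For 41 of the 229 genes, more than 10% of the 75-base windows of the longest coding transcript also occurred in transcripts of other genes. Other genes here include any that overlap at the same place, so the share does not measure likeness between copies alone. Counts of those genes are uncertain, because how shared reads were assigned is not given in the sources used here. The share of shared windows was 92.0% for ZNF709, 71.6% for ZNF20, 24.5% for ZNF492 and 21.3% for ZNF808, and it lay between 12.0% and 18.5% for ZNF112, ZNF587, ZNF878, ZNF653 and ZNF358. The exons of 80 genes overlapped a gene on the same strand and those of 74 a gene on the opposite strand, among them ZNF587 (33.3% of its exon bases) and ZNF224 (40.5%), and whether the counting used strand is not given either.

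The promoters of 3 genes that fell after EGF and of 2 that rose are shown as 250 bases before and 50 after the transcription start (RefSeq, GRCh38.p14), 5′ to 3′ along the gene. Capitals mark CCGGAAG (the core bound by ETS factors), CCAAT, TCCAATCA (which contains CCAAT) and TGACTCA (bound by AP-1) on either strand. These were chosen with the data known. ZNF681 (chr19:23758842-23759141, minus strand), ZNF737 (chr19:20565732-20566031, minus strand) and ZNF93 (chr19:19900696-19900995, plus strand) are genes that fell. ZNF83 (chr19:52690447-52690746, minus strand, the more upstream of 2 starts) and ZNF587 (chr19:57849609-57849908, plus strand) are genes that rose. The window of the other ZNF83 start (chr19:52638306-52638605), which is not shown, held 1 CCGGAAG.
ZNF681: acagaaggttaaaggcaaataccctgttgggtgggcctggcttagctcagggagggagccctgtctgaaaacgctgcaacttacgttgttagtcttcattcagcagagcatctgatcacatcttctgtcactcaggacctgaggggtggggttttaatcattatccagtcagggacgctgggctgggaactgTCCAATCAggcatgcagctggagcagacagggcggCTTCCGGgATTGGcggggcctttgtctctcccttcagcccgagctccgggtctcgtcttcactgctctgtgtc
ZNF737: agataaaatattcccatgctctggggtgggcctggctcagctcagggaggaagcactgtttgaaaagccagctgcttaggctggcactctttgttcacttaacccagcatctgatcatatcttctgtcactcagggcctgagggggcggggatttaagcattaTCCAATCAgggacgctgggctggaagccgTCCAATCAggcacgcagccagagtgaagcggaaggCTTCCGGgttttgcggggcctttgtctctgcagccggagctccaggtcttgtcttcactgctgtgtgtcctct
ZNF93: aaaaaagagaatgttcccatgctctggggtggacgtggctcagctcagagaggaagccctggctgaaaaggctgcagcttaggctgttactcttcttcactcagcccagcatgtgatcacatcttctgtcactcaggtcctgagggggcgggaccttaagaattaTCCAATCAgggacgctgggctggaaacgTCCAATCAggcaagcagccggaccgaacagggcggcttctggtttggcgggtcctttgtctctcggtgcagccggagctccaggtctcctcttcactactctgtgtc
ZNF83: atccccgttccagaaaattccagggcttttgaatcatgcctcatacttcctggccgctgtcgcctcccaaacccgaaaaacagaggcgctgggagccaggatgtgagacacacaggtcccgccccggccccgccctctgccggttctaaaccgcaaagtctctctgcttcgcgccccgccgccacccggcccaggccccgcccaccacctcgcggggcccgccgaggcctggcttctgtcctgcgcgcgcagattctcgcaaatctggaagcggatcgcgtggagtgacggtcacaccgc
ZNF587: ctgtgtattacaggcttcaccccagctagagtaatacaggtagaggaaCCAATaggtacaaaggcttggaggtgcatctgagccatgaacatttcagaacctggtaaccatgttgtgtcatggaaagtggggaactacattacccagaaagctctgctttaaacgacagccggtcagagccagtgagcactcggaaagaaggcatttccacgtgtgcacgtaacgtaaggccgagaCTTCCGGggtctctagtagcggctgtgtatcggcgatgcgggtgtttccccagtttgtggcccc
TCCAATCA occurred once in the ZNF681 window, 2 times each in the ZNF737 and ZNF93 windows, and not in the windows of ZNF83 and ZNF587. The genes shown that fell lie in the same cluster, where every gene with a window carries this word. Its presence in the genes shown that fell was thus fixed by their choice.

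Library totals ran from 15611961 to 25856953 counts, with a median of 20398047. The variance between replicates was 3.53 to 57.5 times the sampling noise over 30 pairs. The epithelial markers EPCAM, CDH1, KRT8, KRT18, KRT5 and EGFR were present in all groups. All 6 were higher at 12 h than in the control. CDH1 was lower at 24, 48 and 72 h, and EPCAM at 48 and 72 h. EGFR had a mean of 3474 CPM in the control, and PGR was at 0 in all 20 libraries. Of 5 EGF response genes, all were higher at 12 h and 4 at each later time. The exception, EGR1, was lower than the control at 24, 48 and 72 h. Of 6 markers of immune, stromal and endothelial cells, the summed level was between 8.35 and 11.7 CPM in the control and between 40.2 and 47.9 CPM at 72 h, with most of the difference in CD68 (1.15 to 26.7 CPM in the mean). CD3E and COL3A1 had group means of at most 0.048 CPM and PTPRC of at most 0.19 CPM. COL1A1 was higher at all 4 times (control 6.18 CPM, 72 h 13.9 CPM), and PECAM1 had 2.31 CPM in the control, 0.374 at 12 h and 4.199 at 48 h. The part of these markers in the results below was not tested.

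Summed over the 229 genes, the level in control libraries 1 to 4 was 3790, 3635, 4660 and 4123 CPM (scaled by TMM, the normalisation factors of edgeR). At 12 h the 4 libraries had 3153, 3259, 3317 and 3359 CPM, all below the lowest control. At 24 h they had 3552, 3399, 3462 and 3524 CPM, and again none reached the controls. The libraries at 48 h had 3186, 3103, 3636 and 3584 CPM, and those at 72 h had 3315, 3615, 3359 and 3339 CPM. The 48 h group overlapped the control by 1 library, at 3636 against 3635 CPM, and the 72 h group did not overlap it. The mean was 4052 ± 454 CPM (SD, n = 4) in the control and, in order of time, 3272 ± 89.5, 3484 ± 68.3, 3377 ± 271 and 3407 ± 140 CPM with EGF. In bulk samples less RNA of a gene per cell and fewer cells that express it cannot be told apart. The TMM factors themselves differed between groups, at 1.06 to 1.08 in the control and 0.862 to 0.898 at 12 h, and the mean share of mitochondrial counts was 10.9% in the control and 15.0% at 72 h. Their part in the sums was not tested.

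**Figure D1:**
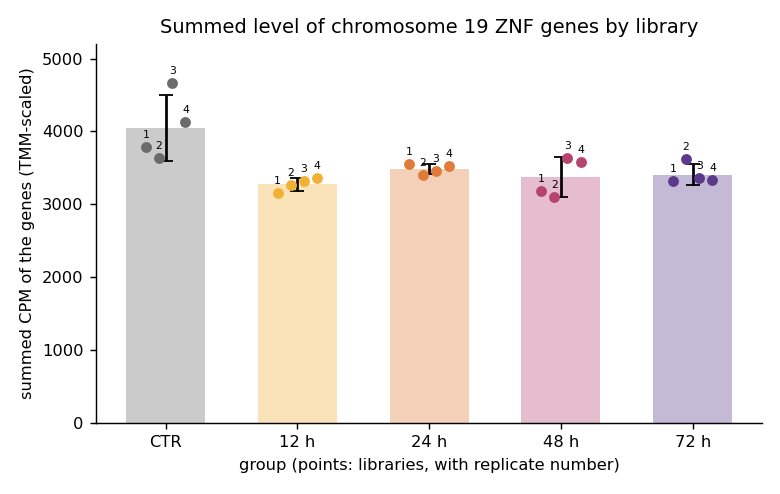
Summed level of the 229 chromosome 19 ZNF genes (CPM after TMM scaling, y axis) by group (x axis); bars and error bars give the mean and SD of 4 libraries, and points are libraries with their replicate number. All 12 h libraries lie between 3153 and 3359 CPM and all controls between 3635 and 4660 CPM, with control replicate 3 the highest.

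At 12 h, 135 of the 229 genes were lower than in the control and 29 were higher (edgeR's quasi-likelihood test, adjusted p under 0.05 over all 16522 genes tested). That is 59% lower and 12.7% higher, beside 36.5% lower and 32.9% higher among all genes tested. At 24 h, 120 were lower and 22 higher, where all genes gave 29.6% lower and 29.2% higher. At 48 h, 103 were lower and 11 higher, against 21.8% lower and 24% higher for all genes. At 72 h, 116 were lower and 24 higher, against 31% lower and 30.6% higher. ZNF114 is among the genes higher at 72 h and ZNF20 among those lower at each time, and the rule favoured these calls. The median log2 fold change of the 229 genes was -0.42, -0.32, -0.24 and -0.33 at the 4 times, and that of all genes tested -0.05, -0.01, 0.01 and -0.01. The 4 comparisons share the same control libraries. A change of over 1.5-fold was estimated for 95, 49, 32 and 68 of the lower genes at the 4 times, or 41.5%, 21.4%, 14% and 29.7% of the set, beside 26.3%, 16.8%, 6.63% and 15.6% of all genes tested. Of the higher genes, 8, 5, 3 and 11 passed that size, or 3.49%, 2.18%, 1.31% and 4.8%, beside 20.3%, 16.9%, 15.3% and 20.2% of all genes. The count at 72 h includes ZNF114. Without control replicate 3, 127, 101, 79 and 104 genes were lower at the 4 times and 31, 29, 15 and 25 higher, and the median at 12 h was -0.35. With scaling by library size alone the 12 h split was 178 lower and 8 higher, where the median of all genes moved to -0.34. The median of the zinc finger genes lay 0.37 below that of all genes under both scalings.

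The same quantities for other genes differed in size or in direction, but were close for other ZNF genes at 72 h. Of 214 ZNF genes on other chromosomes, 102 (47.7%) were lower and 48 (22.4%) higher at 12 h, with a median of -0.23. The 229 genes had 59% lower and 12.7% higher. At 24 h, 39.7% of the 214 were lower and 12.6% higher, beside 52.4% and 9.61% of the 229. At 48 h the shares were 38.8% and 6.07%, beside 45% and 4.8%. At 72 h, 106 (49.5%) of the 214 were lower and 20 (9.35%) higher, with a median of -0.26. The 229 had 50.7% lower and 10.5% higher, with a median of -0.33. Among ZNF genes, the shares at 72 h were thus not particular to chromosome 19. Of the 713 other coding genes of chromosome 19 with a mean of at least 1 CPM, 132 were lower and 364 higher at 12 h, with a median of 0.29. At 72 h these neighbours of the zinc finger genes gave 173 lower and 229 higher, with a median of 0.06.

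**Figure D2:**
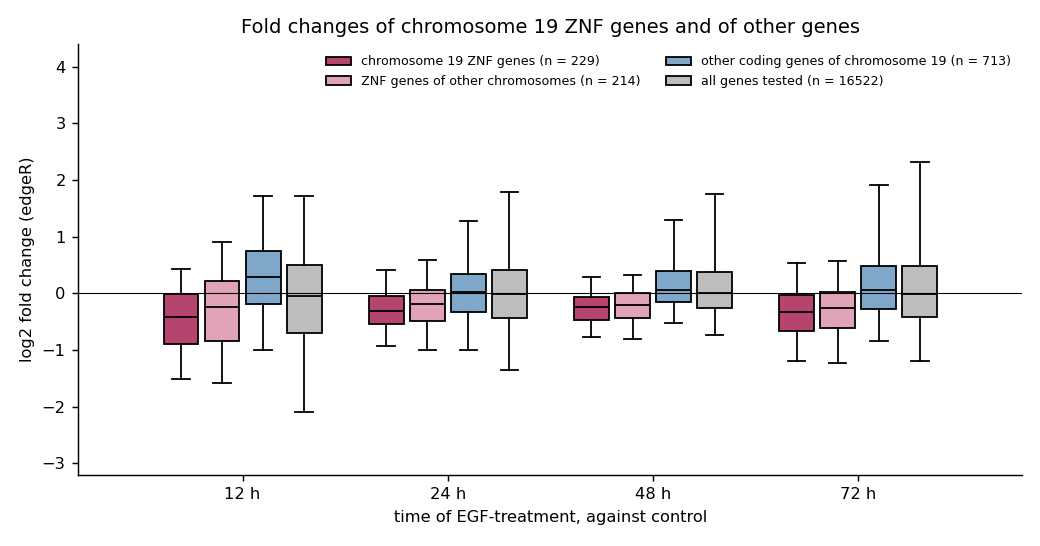
Log2 fold change against the control (y axis) at each time (x axis) for the 229 chromosome 19 ZNF genes, 214 ZNF genes of other chromosomes, 713 other coding genes of chromosome 19 and all 16522 genes tested; boxes give quartiles and median, whiskers the 5th and 95th percentiles. At 12 h the median was -0.42 for the chromosome 19 ZNF genes and 0.29 for the other coding genes of the chromosome.

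Over the 4 times, 62 of the 229 genes (27.1%) were lower at all of them, beside 10.4% of all genes tested. Higher at all of them were 4 (1.75%, beside 11.2%), namely ZNF114, ZNF587, ZNF808 and ZNF83. ZNF114 entered the set through its 72 h libraries, and ZNF20, among the 62, through the controls. The rule favoured the calls of these genes. Another set of 22 genes (9.61%) was called at no time, beside 10.2%. In 164 genes (71.6%) every call was lower and in 32 (14%) every call was higher, beside 39.2% and 37.6% of all genes. The remaining 11 (4.8%, beside 13% of all genes), among them ZNF846, ZNF562 and ZNF382, were lower at 1 time and higher at another. The shared controls favour the same call at several times, in the set and among all genes.

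The genes were grouped by position, with a new group wherever neighbouring starts were more than 1 Mb apart, which gave 16 groups, 15 of them with a gene of the set. Position group 5, from 19.7 to 24.1 Mb, held 32 of the genes. Of these, 27, 26, 23 and 27 were lower at the successive times, beside 36.5%, 29.6%, 21.8% and 31% of all genes tested. At most 1 was higher at any time (ZNF430, at 12 and 24 h), beside 24% to 32.9% of all genes. The median log2 fold change was -0.85, -0.55, -0.48 and -0.77 at the 4 times. Across the 4 times, 30 of the 32 were lower at 1 or more and 20 at all 4, which leaves ZNF430 and ZNF431 without a lower call. These close copies share sequence and history and are not independent of each other.

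ZNF253 (chr19:19865886-19894674, 4 exons, plus strand) was lower at all 4 times. Its level was 47.4, 48.1, 72.5 and 59.5 CPM in control libraries 1 to 4. At 12 h the libraries had 17, 19.9, 20.2 and 19.6 CPM, and at 72 h 20.002, 24.9, 22.5 and 21.3 CPM. No EGF library reached the lowest control, with a highest value of 32.6 CPM at 48 h. The log2 fold change was -1.57 ± 0.11 (SE) at 12 h (adjusted p = 1.57e-11), -0.99 ± 0.11 at 24 h, -0.97 ± 0.11 at 48 h and -1.36 ± 0.11 at 72 h (adjusted p = 2.39e-10). From 12 to 24 h it rose by 0.57 ± 0.12 (adjusted p = 0.000207), and from 48 to 72 h it fell by 0.39 ± 0.11 on the log2 scale (adjusted p = 0.00873).

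ZNF681 (chr19:23739195-23758891, 4 exons, minus strand), whose promoter is printed above, was lower at all 4 times too. Its controls had 16.5, 20.1, 25.2 and 21.4 CPM, the 12 h libraries 6.26, 5.99, 5.80 and 7.32 CPM, and the 72 h libraries 6.74, 8.99, 7.48 and 7.66 CPM. The groups did not overlap, at a log2 fold change of -1.71 ± 0.13 at 12 h (adjusted p = 2.98e-11) and -1.44 ± 0.13 at 72 h (adjusted p = 7.22e-10). ZNF737 (chr19:20535825-20565809) had 13.8, 15.5, 21.4 and 20.1 CPM in the controls and 5.41, 4.79, 5.30 and 5.50 CPM at 12 h, a log2 fold change of -1.75 ± 0.15. ZNF682 (chr19:19997058-20039506) changed by -1.72 ± 0.17 and ZNF726 by -1.63 at 12 h. ZNF99 (chr19:22752183-22784107) had 1.31, 3.07, 3.67 and 2.98 CPM in the controls and 0.327 to 0.669 CPM at 12 h (log2 fold change -2.37 ± 0.32). It then rose by 1.84 ± 0.33 from 12 to 24 h and was not called against the control from 24 h on. ZNF254 had 18.5, 19.8, 31.2 and 27.1 CPM in the controls and 10.3, 12.5, 13.8 and 13.7 CPM at 48 h (-0.94 ± 0.13). ZNF492, with 24.5% of its windows shared, had 1.81 to 3.20 CPM in the controls and 0.626 to 1.02 CPM at 72 h (-1.56 ± 0.30). In both genes the groups named did not overlap.

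ZNF93 and ZNF91, whose proteins are known to bind retrotransposons, were lower at all 4 times. ZNF93 (chr19:19900913-19963464), which binds and represses LINE-1 elements, had 49.2, 45.8, 59.2 and 52.1 CPM in the controls and 28.2, 25.2, 29.4 and 27.8 CPM at 12 h. Its mean at the 4 EGF times was 27.7 ± 1.78, 27.4 ± 0.965, 31.0 ± 3.18 and 25.7 ± 2.03 CPM (SD, n = 4), and all EGF libraries lay below the controls. Among the steps between times, that from 48 to 72 h (-0.27 ± 0.09, adjusted p = 0.0168) passed the test. The log2 fold change was between -1.003 and -0.73, with an adjusted p of 1.78e-07 at 48 h as the weakest. ZNF91 (chr19:23304991-23395560), which represses SVA elements, was measured at 89.1, 90.9, 162 and 127 CPM in the controls and at 63.5, 74.8, 76.8 and 76.7 CPM at 12 h. The log2 fold change was -0.69 ± 0.15 at 12 h (adjusted p = 0.000514) and -0.60 ± 0.15 at 72 h (adjusted p = 0.00214). At 48 h 3 of 4 libraries lay below all controls, the exception having 91.8 CPM.

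**Figure D3:**
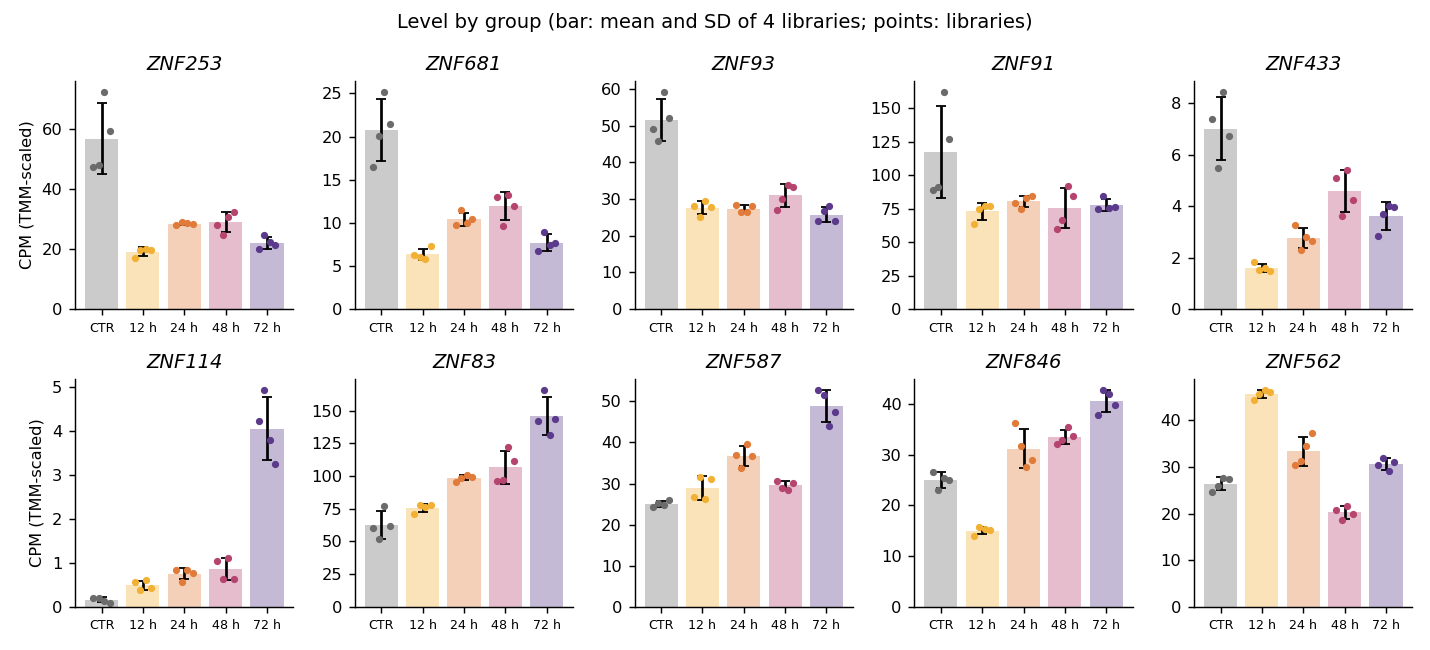
Level (CPM after TMM scaling, y axes from 0) of 10 chromosome 19 ZNF genes in the control and at 12, 24, 48 and 72 h; bars and error bars give the mean and SD of 4 libraries and points the libraries. ZNF253, ZNF681, ZNF93, ZNF91 and ZNF433 were lower at every time, ZNF114, ZNF83 and ZNF587 higher at every time, and ZNF846 and ZNF562 changed direction. ZNF114 entered the set through its 72 h libraries.

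Other position groups gave other shares. In group 3, from 11.5 to 12.6 Mb, 20, 12, 15 and 16 of 25 genes were lower at the successive times, with medians of -0.74, -0.36, -0.44 and -0.52. Among all genes tested 36.5%, 29.6%, 21.8% and 31% were lower. Both ZNF20 and ZNF625-ZNF20 are among the 25 and were lower at all 4 times, and their counts are not independent. ZNF433 (chr19:12014732-12035741) had 7.38, 5.51, 8.45 and 6.73 CPM in the controls and 1.82, 1.53, 1.60 and 1.48 CPM at 12 h. It changed by -2.12 ± 0.17 at 12 h (adjusted p = 9.74e-11), by -1.34 ± 0.16 at 24 h and by -0.61 ± 0.15 at 48 h, with no overlap with the controls. Its neighbour ZNF844 had 20.5, 18.2, 25.2 and 25.2 CPM in the controls and 8.29, 7.51, 9.83 and 9.96 CPM at 72 h (log2 fold change -1.33 ± 0.12). ZNF709, with the lowest log2 fold change at 12 h (-2.82 ± 0.66), is one of the genes with mostly shared sequence, and its 72 h libraries ran from 0 to 2.79 CPM. ZNF20, which also shares most of its sequence and entered the set through the controls, had 1.18 to 2.76 CPM in the controls and 0.388 to 1.12 CPM at 48 h. ZNF878 in the same group rose by 0.89 ± 0.20 at 12 h, from 1.66 to 2.95 CPM in the controls to 3.32 to 4.86 CPM.

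The next groups stand beside 36.5% lower at 12 h and 31% lower at 72 h among all genes tested. In group 9, from 36.2 to 37.8 Mb, 17 of 26 genes were lower at 12 h and 11 at 72 h, and 1, ZNF382, was higher at 72 h. ZNF540 of this group had 1.61 to 3.12 CPM in the controls and 0.497 to 0.717 CPM at 12 h, a log2 fold change of -1.95 ± 0.28. In group 12, from 43.5 to 45.1 Mb, 12 of 23 genes were lower at 12 h and 10 at 72 h. ZNF112 had 4.82, 5.00, 5.68 and 4.18 CPM in the controls and 1.5, 1.71, 1.45 and 1.28 CPM at 72 h, and its log2 fold change was -1.72 ± 0.16 (adjusted p = 2.11e-09). ZNF235, next to it, had 4.67 to 7.03 CPM in the controls and changed by -1.31 ± 0.17 at 24 h and by -1.20 ± 0.16 at 48 h. ZNF358, in group 2, had 6.23, 12.3, 6.45 and 7.69 CPM in the controls and 3.35, 1.99, 2.79 and 3.26 CPM at 72 h (-1.51 ± 0.23).

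Most genes that rose came from the groups nearest the end of the long arm, which are the 2 largest groups. The shares higher there stayed below those of all genes tested, 32.9% at 12 h and 30.6% at 72 h. In group 2, from 7.07 to 9.79 Mb, 4 of 14 genes were higher at 12 h and 3 at 72 h, while 7 and 6 were lower. In group 15, from 51.6 to 53.6 Mb, 7 of 39 genes were higher at 12 h and 6 at 72 h, while 20 and 12 were lower. Among all genes tested 36.5% were lower at 12 h and 31% at 72 h, and the share of group 15 at 72 h was close to the latter. In group 16, from 55.5 to 58.5 Mb, 11 of 53 were higher at 12 h and 11 at 72 h, while 23 and 24 were lower. The medians of groups 15 and 16 at 12 h, -0.27 and -0.22, lay closer to 0 than those of groups 3, 5 and 9.

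**Figure D4:**
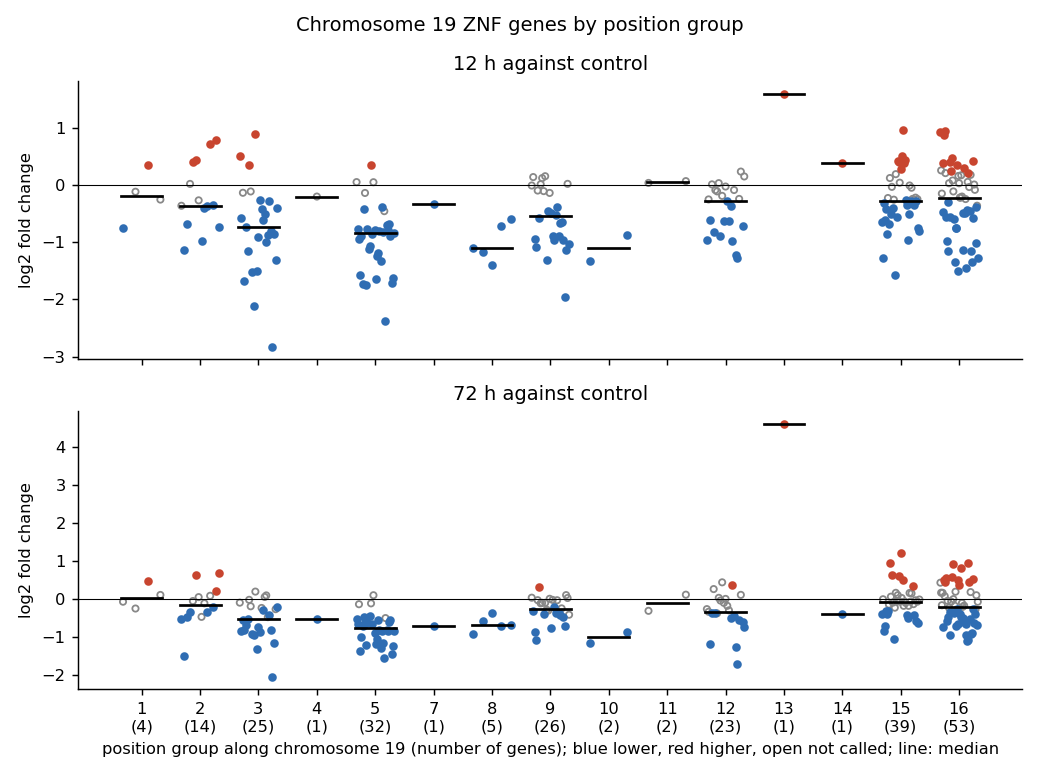
Log2 fold change against the control (y axis) of the 229 genes at 12 h (upper panel) and 72 h (lower panel), in order along chromosome 19 within each position group (x axis, number of genes in brackets); blue points are lower and red points higher at an adjusted p under 0.05, open points are not called and lines are medians. In group 5, 27 of 32 genes were lower at both times, beside 36.5% of all genes tested at 12 h and 31% at 72 h. Most red points lie in groups 15 and 16, which hold the most genes.

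ZNF83 (chr19:52594060-52690496, 11 exons, minus strand), the second most abundant gene of the set, rose at all 4 times. Its level was 59.9, 51.5, 77.1 and 61.8 CPM in the controls, 95.8, 98.6, 101 and 99.5 CPM at 24 h, and 142, 166, 132 and 143 CPM at 72 h. At 12 h, with 71.2 to 77.9 CPM, the libraries overlapped control replicate 3. The log2 fold change was 0.27 ± 0.10 at 12 h (adjusted p = 0.0163), 0.66 ± 0.10 at 24 h, 0.77 ± 0.10 at 48 h and 1.22 ± 0.10 at 72 h (adjusted p = 1.49e-10). The steps from 12 to 24 h (0.38 ± 0.10, adjusted p = 0.00201) and from 48 to 72 h (0.45 ± 0.10, adjusted p = 0.000762) passed the test, and the step from 24 to 48 h did not (adjusted p = 0.352).

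ZNF114 (chr19:48270102-48287608, 8 exons, plus strand) was close to absent before EGF, with 4, 5, 3 and 2 counts in the control libraries. Summed over 4 libraries, its counts were 14 in the control, then 38, 56 and 75 up to 48 h and 316 at 72 h. Against the control, this is a ratio of counts per library total of 24.4 at 72 h, which rests on the 14 control counts and which the rule favoured. In CPM the 72 h libraries had 4.24, 4.95, 3.8 and 3.26, above every other library, of which the highest had 1.10. Because ZNF114 entered the set through these 72 h libraries, its level at 72 h is given as a description, with no test.

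ZNF587 (chr19:57849857-57865112) had 24.4, 25.3, 24.8 and 26 CPM in the controls and 52.7, 51.5, 44.1 and 47.3 CPM at 72 h, with no overlap at any time. Its log2 fold change was 0.21 ± 0.08, 0.55 ± 0.08 and 0.23 ± 0.08 up to 48 h and 0.96 ± 0.08 at 72 h (adjusted p = 1.08e-10), and the fall from 24 to 48 h (-0.32 ± 0.08, adjusted p = 0.00141) passed the test too. ZNF841, from 9.09, 9.63, 12.1 and 11.1 CPM in the controls to 20.4, 22.8, 18.8 and 18.6 CPM at 72 h, rose by 0.94 ± 0.11, and ZNF550 by 0.82 ± 0.10. ZNF808 had 11.1, 13.1, 14 and 13.5 CPM in the controls and 19, 19, 24.3 and 19.3 CPM at 24 h (0.65 ± 0.10). ZNF699 rose by 0.62 ± 0.13 at 24 h. ZNF460 was higher at 24 h (1.12 ± 0.20), 48 h (0.61 ± 0.20, adjusted p = 0.0195) and 72 h (0.94 ± 0.20), but its controls spread widely, at 7.69, 20.8, 16.6 and 21.2 CPM.

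A further set was highest at 12 h. ZNF600 had 18.9, 17.3, 23.5 and 20.9 CPM in the controls and 37, 39, 42.8 and 37.4 CPM at 12 h (log2 fold change 0.95 ± 0.11, adjusted p = 4.42e-08), and it fell by 0.46 ± 0.11 on the log2 scale from 12 to 24 h. ZNF787 (0.94 ± 0.14), ZNF628 (0.93 ± 0.18) and ZNF581 (0.87 ± 0.16) rose at 12 h as well. ZNF787 fell by 0.73 ± 0.14 on the log2 scale from 12 to 24 h, as did ZNF296 by 0.66 ± 0.22 and ZNF653 by 0.64 ± 0.16. At 48 h ZNF665 (0.39 ± 0.11) and ZNF57 (0.34 ± 0.11) were among the genes that rose.

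From 12 to 24 h, 80 of the 229 genes rose and 31 fell, where 27.9% of all genes tested rose and 25.9% fell. Scaling by library size gave 113 and 18, and upper quartiles gave 110 and 22. Of the 135 genes lower at 12 h, 68 (50.4%) rose from 12 to 24 h, beside 50.8% of the 6032 genes lower at 12 h among all tested. A rise is favoured in both, since the same 12 h libraries chose these genes. Of the 68, 39 were still lower than the control at 24 h, 28 were no longer called and 1, ZNF846, was higher. From 24 to 48 h, 33 rose and 34 fell, against 25.9% and 24.3% of all genes. That even split was 71 and 7 when scaled by library size, 47 and 19 by upper quartiles and 21 and 10 with factors per gene, so no direction is given for this step. From 48 to 72 h, 23 rose and 35 fell, against 17.9% and 17.9% of all genes, and the split was 13 and 61 when scaled by library size, 26 and 29 with DESeq2 size factors and 31 and 30 without EGF 48 h replicate 3. No direction is given for this step either.

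ZNF577 and ZNF404 were lower than the control at 12 and 24 h, rose from 24 to 48 h and were not called against the control at 48 h. ZNF577 had 8.14, 8.45, 10.03 and 9.61 CPM in the controls, 2.78, 4.03, 4.31 and 3.92 CPM at 12 h, 5.59, 5.65, 5.51 and 5.61 CPM at 24 h and 9.70, 9.88, 9.80 and 9.43 CPM at 48 h. The step from 24 to 48 h was 0.79 ± 0.12 (adjusted p = 1.39e-05), and at 48 h the log2 difference from the control was 0.10 ± 0.12. ZNF404 rose by 0.87 ± 0.15 and ZNF563 by 0.93 ± 0.21 in the same interval, while ZNF441 had already risen by 1.23 ± 0.25 from 12 to 24 h. From 48 to 72 h ZNF428 fell by 0.77 ± 0.13, ZNF726 by 0.71 ± 0.16 and ZNF358 by 0.97 ± 0.23 on the log2 scale.

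ZNF846 and ZNF562 crossed the control level. ZNF846 (chr19:9751993-9793180) had 26.7, 23.0, 25.5 and 25 CPM in the controls, 13.9, 15.7, 15.4 and 15.1 CPM at 12 h and 37.8, 42.7, 42.1 and 39.9 CPM at 72 h. All 12 h libraries lay below, and all 24, 48 and 72 h libraries above, the controls. Its log2 fold change was -0.74 ± 0.08 at 12 h and 0.70 ± 0.08 at 72 h. ZNF562 (chr19:9641808-9675086), in the same position group, went the other way early on, from 24.6, 26, 27.7 and 27.5 CPM in the controls to 44.5, 45.7, 46.5 and 46.1 CPM at 12 h and 20.8, 18.5, 21.7 and 19.99 CPM at 48 h. Its log2 fold change was 0.79 ± 0.07 at 12 h, -0.38 ± 0.07 at 48 h and 0.21 ± 0.07 at 72 h, with no overlap with the controls at any of the 4 times. Exons of ZNF562 overlap a gene on the opposite strand over 18.9% of their bases.

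Among genes with a described role, ZNF274, which binds the 3′ ends of other zinc finger genes and recruits SETDB1 there, was one of few that rose. It had 34.3, 26.8, 33.0 and 27.9 CPM in the controls, 39.9, 42.6, 40.0 and 39.5 CPM at 12 h and 44.1, 48.9, 41.6 and 41.1 CPM at 72 h. The log2 fold change was 0.41 ± 0.08 at 12 h (adjusted p = 0.000164) and 0.53 ± 0.08 at 72 h (adjusted p = 9.71e-06), and those at 24 and 48 h (0.16 and 0.10) were not called. ZNF649, a repressor of serum response element and AP-1 reporters, had 14.3, 13.4, 15.7 and 15.4 CPM in the controls and 8.25, 8.53, 7.71 and 8.62 CPM at 72 h. It changed by -0.32 ± 0.10, -0.68 ± 0.10 and -0.53 ± 0.10 up to 48 h and by -0.83 ± 0.10 at 72 h (adjusted p = 2.03e-07).

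ZNF331, an imprinted gene in some tissues, fell to between 10.6 and 11.3 CPM at 12 h from between 18.1 and 20.9 CPM (log2 fold change -0.80 ± 0.08) and differed from the control by -0.01 ± 0.08 at 72 h. ZNF382, reported as a tumour suppressor that is silenced by methylation, changed by -0.57 ± 0.09 at 12 h and by 0.31 ± 0.09 at 72 h (adjusted p = 0.00496, 3 of 4 libraries above all controls). ZNF675, which interacts with TRAF6, was lower at all 4 times, with -0.89 ± 0.12 at 12 h and -0.31 ± 0.12 at 48 h (adjusted p = 0.0399). ZNF304 was also lower at all 4, from -0.59 ± 0.10 at 12 h to -0.25 ± 0.10 at 48 h (adjusted p = 0.0433). ZNF175 was lower at 12, 24 and 72 h, with -0.64 ± 0.12 at 12 h. ZNF350 (ZBRK1), a partner of BRCA1, was lower at 12 h (-0.43 ± 0.14) and at 72 h (-0.33 ± 0.14, adjusted p = 0.0485, 2 of 4 libraries below all controls). ZNF224, a cofactor of WT1, was lower at 12 h (-0.28 ± 0.11, adjusted p = 0.0244) and not called later. ZNF160, a repressor of TLR4, was higher at 24 h (0.29 ± 0.10, adjusted p = 0.0151) and not called at the other times. The calls of ZNF304 and ZNF675 at 48 h, ZNF350 at 72 h and ZNF224 at 12 h were lost under several alternatives.

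The partners through which KRAB proteins silence DNA were followed as a list of 30 genes. At 12 h 8 were higher and 7 lower, at 24 h 6 and 9, at 48 h 2 and 14, and at 72 h 2 and 18, with a median log2 fold change of -0.39 at 72 h. Among all genes tested 32.9% were higher and 36.5% lower at 12 h, and 29.2% and 29.6% at 24 h. At 48 h these shares were 24% and 21.8%, and at 72 h 30.6% and 31%. At 12 and 24 h the list did not stand clearly above these shares in either direction. The mean of TRIM28 fell from 66.0 CPM to 51.9 CPM at 72 h (-0.35 ± 0.12, adjusted p = 0.0141) and was not called earlier. SETDB1 was lower at 72 h (-0.37 ± 0.09, adjusted p = 0.000987) and not called earlier. The HP1 genes CBX5 (-0.91 ± 0.08 at 12 h, -0.56 ± 0.07 at 72 h) and CBX1 (-0.23 ± 0.08 and -0.80 ± 0.08) were lower at all 4 times, and so was EHMT2, which encodes the methyltransferase G9a (-0.87 ± 0.13 at 72 h). RESF1, a partner of SETDB1, was higher at all 4 times, with 1.63 ± 0.15 at 12 h and 1.36 ± 0.15 at 72 h, and DNMT1 was higher at 12 h (0.41 ± 0.06) and 24 h. Whether these levels bear on those of the zinc finger genes was not tested.

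A set of 16 zinc finger genes of chromosome 19 with other symbols gave 5 higher and 6 lower at 12 h, 3 and 7 at 24 h, 2 and 4 at 48 h and 4 and 5 at 72 h. That is 31.2%, 18.8%, 12.5% and 25% higher, beside 32.9%, 29.2%, 24% and 30.6% of all genes tested. The shares lower were 37.5%, 43.8%, 25% and 31.2%, beside 36.5%, 29.6%, 21.8% and 31%. ZFP36, which encodes an mRNA-decay factor (tristetraprolin) and is an early response gene, was higher at 12 h (2.02 ± 0.11). ZFP14, a KRAB gene, was lower at all 4 times, by -1.66 ± 0.19 at 12 h.

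RefSeq promoter windows were matched for 203 of the 229 genes, with 252 windows in all because some genes have several starts. Among all words of 8 letters, TCCAATCA (TGATTGGA on the other strand) had the largest excess in these windows over those of all coding genes tested. It was present in 50 of 252 windows (19.8%), in 1.67% of 15580 windows of coding genes tested and in 1.54% of all 35116 windows. Windows of ZNF genes on other chromosomes held it in 7.11%. By direction, it stood in 24.3% of the 152 windows of genes lower and 14.8% of the 27 windows of genes higher at 12 h. At 72 h it stood in 31.9% of 116 and 8.33% of 24 windows. Position group 5 is part of these windows. All 27 genes of that group with a window carried the word, and 23 of the 176 genes in other groups did. In those other groups, 15 of the 23 genes with the word and 83 of the 153 without it were lower at 12 h, with medians of -0.58 and -0.36. At 72 h 13 of 23 and 67 of 153 were lower, with medians of -0.28 and -0.23. Among all genes tested 36.5% were lower at 12 h and 31% at 72 h. The shares with and without the word both lay above these. The 22 group 5 genes lower at 12 h among these 27 are related copies, so the word, the position and the direction cannot be told apart there.

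**Figure D5:**
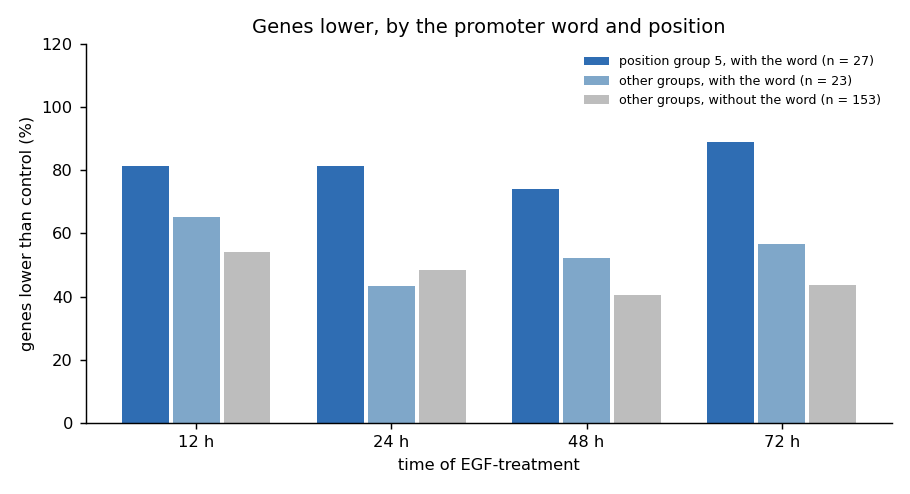
Share of genes lower than the control (%, y axis from 0) at each time (x axis) for the 27 position group 5 genes, all with TCCAATCA in the promoter window, for 23 genes of other groups with it and for 153 genes of other groups without it. At 12 h 22 of 27, 15 of 23 and 83 of 153 genes were lower, beside 36.5% of all genes tested.

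The ETS core CCGGAAG (or CTTCCGG) was found in 41.7% of the windows of the set, 30.1% of those of ZNF genes elsewhere, 16.4% of those of coding genes tested and 10.3% of all windows. It occurred in 38.8% of windows of genes lower and 48.1% of windows of genes higher at 12 h, and in 37.1% and 54.2% at 72 h. CCAAT (or ATTGG) was found in 50.4% of windows of the set, 34.7% of those of coding genes tested and 34.6% of all windows. The AP-1 word TGACTCA (or TGAGTCA) occurred in 5 of 252 windows (1.98%), in 3.66% of those of coding genes tested and in 4.95% of all windows. GGGCGG (or CCGCCC) was in 63.5% of windows of the set, 64.7% of those of coding genes tested and 45% of all windows. It stood in 92.6% of the 27 windows of genes higher and 60.5% of the 152 windows of genes lower at 12 h, and in 79.2% of 24 and 64.7% of 116 at 72 h. A match describes these letters only and is not a measured binding site.

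Features of the encoded proteins were compared with the direction of change as a description. The counts below stand beside the shares among all genes tested. These were 36.5% lower and 32.9% higher at 12 h, 29.6% lower at 24 h, and 31% lower and 30.6% higher at 72 h. Translated from the longest coding transcript, the proteins held a median of 13 finger patterns (range 0 to 32). At 12 h, 19 of 31 genes with up to 7 fingers, 60 of 108 with 8 to 13 and 56 of 90 with 14 or more were lower, and at 24 h 18, 60 and 42 of them were. A KRAB A box-like stretch was found in 163 proteins, of whose genes 100 were lower at 12 h (median -0.46), and in the other 66, 35 were lower (median -0.33). The pattern searched misses some known KRAB proteins, ZNF224 and ZNF350 among them. Across the 229 genes the log2 fold change at 12 h and the mean level had a Spearman rho of 0.23, and at the later times of 0.28, 0.01 and 0.12. These values come from the same libraries and are a description. Among the 188 genes with at most 10% of windows shared, 110 were lower and 25 higher at 12 h and 94 and 19 at 72 h.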

How the data were processed

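RNA-seq libraries (Lexogen Corall mRNA, single-end, Illumina NS500) of 20 samples in 5 groups of 4 biological replicates were used. The authors deposited, per gene and library, a whole number taken here as a rounded estimated count (no source states it) and a DESeq2-normalised value, a score on the scale of counts. Per the labels the build was hg38. The aligner, the counter, the annotation and the handling of molecular identifiers are not given in the sources used here. The 10 deposited tables hold the same counts, and 9 were not used. Columns of the authors' own fold changes and p-values were not used, and the normalised score served 1 alternative only (factors per gene, where no library had fewer than 20 counts).

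Counts were analysed with edgeR 4.0.16 (filterByExpr, TMM, robust quasi-likelihood F-test, 1 mean per group, all 20 libraries, R 4.3.3), with Benjamini-Hochberg adjustment over the 16522 genes tested and a threshold of 0.05. The procedure was run on simulated data in which few genes changed, in equal numbers up and down. It therefore does not bear on the scaling between the groups here, where many genes changed. Levels are CPM after TMM scaling. SE is the log2 fold change over the root of F. Positions, exons and translated transcripts are from GENCODE 29 and promoters from RefSeq. Named are, for each time against the control, the 6 highest and 6 lowest fold changes among genes of the set with an adjusted p under 0.05 and all 4 EGF libraries on 1 side of all 4 controls, likewise 3 and 3 for each step between times, and genes of known role. ZNF430, ZNF431, and the genes counted as called in both directions or higher at all times were added after their values were seen. Genes of the set and the lists were chosen with earlier results of these data known. p-values measure the spread between replicates of 1 cell line. Alternatives were library size only, upper quartiles, DESeq2 1.42.0 (size factors, Wald test), other filters, only the 8 libraries compared, a replicate block, glmTreat at 1.5-fold and leaving out each library.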

Additional observations from a re-analysis of the deposited data

Results flagged for a closer look

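In 11 of 265 groups of 4 libraries, 1 library stood apart from the other 3 by more than Dixon's 95% critical value. Chance flags about 1 in 20 groups. Replicate 2 at 72 h stood above the others in the summed level of the 229 genes (3615 CPM against 3315 to 3359 CPM), in ZNF99 (2.73 CPM), in ZNF737 (9.61 CPM) and in ZNF91 (84.1 CPM). Replicate 3 at 24 h was high in ZNF460 (45.3 CPM) and in ZNF808 (24.3 CPM), and replicate 2 at 12 h in ZNF653 (6.32 CPM). Replicate 1 at 12 h was low in ZNF91 (63.5 CPM) and in ZNF492 (0.758 CPM). At 48 h, replicate 1 was low in ZNF57 (5.26 CPM) and replicate 4 in ZNF492 (0.906 CPM).

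Of the 11 genes called in opposite directions at different times, 3 are described here and the others are not. For these 3, differences between times passed edgeR's quasi-likelihood test. The same libraries chose the genes by those opposite calls, so that a pass was favoured and adds no separate support. ZNF846, lower than the control at 12 h, was higher at 24 h than at 12 h by 1.05 ± 0.08 (adjusted p = 5.33e-10), at 48 h by 1.16 ± 0.08 (adjusted p = 1.52e-11) and at 72 h by 1.43 ± 0.08 (adjusted p = 5.84e-13), all on the log2 scale. ZNF562 changed by -1.17 ± 0.07 from 12 to 48 h (adjusted p = 1.5e-12), by -0.72 ± 0.07 from 24 to 48 h (adjusted p = 3.17e-08) and by 0.60 ± 0.07 from 48 to 72 h (adjusted p = 9.42e-07). ZNF382 was higher at 72 h than at 12 h by 0.88 ± 0.09 (adjusted p = 1.78e-08). In each of these differences all 4 libraries of the later time lay on 1 side of all 4 of the earlier.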

How the results depend on the processing

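Of 126 counts of called genes under alternatives, 115 stayed within 1.5 times the reported one. Against a 1.5-fold limit (edgeR's glmTreat), 70, 21, 8 and 43 genes were called at 12, 24, 48 and 72 h, and 12, 0 and 1 for the steps from 12 to 24, 24 to 48 and 48 to 72 h. For the step from 24 to 48 h the test without that limit called 67 and the DESeq2 Wald test 56. Factors per gene gave 58 at 48 h and 69, 31 and 37 for the steps. Median log2 fold changes scaled by library size were -0.71, -0.46 and -0.40 at 12, 24 and 72 h and 0.30, 0.18 and -0.16 for the steps. Upper quartiles gave -0.58 and -0.36 at 12 and 24 h and 0.28 from 12 to 24 h, factors per gene -0.36 at 12 h, and a minimum of 10 counts -0.27 at 72 h. Leaving out 1 library gave medians from -0.46 to -0.35 at 12 h, -0.34 to -0.26 at 24 h and -0.39 to -0.26 at 72 h. The cause of these shifts was not tested.

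With the replicate number as a block, 167, 147, 119 and 143 genes were called at the 4 times and 116, 75 and 62 for the steps. Deviations of same-numbered libraries from their group means had a median r of 0.009 over 40 pairs, 5 above 0.1, with a highest r of 0.35. Pairs of different number had a median r of -0.004 over 120 pairs, 10 above 0.1, with a highest r of 0.26. These values cannot settle whether the numbers pair the libraries.

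Of 114 values for named genes, 49 kept direction and call under every alternative run. Direction turned for 6 values, none of them called in the reported test. ZNF160 at 12 h became 0.0135 with DESeq2 size factors, 0.41 with factors per gene, 0.0282 without a filter, 9.07e-05 with 8 libraries and 0.016 by the Wald test, and at 48 h 0.31 with factors per gene. With 1 library left out it ran from -0.0611 to 0.062 at 12 h and from -0.13 to 0.0023 at 48 h. ZNF224 at 24 h became -0.13 by library size and -0.0298 by upper quartiles, and ran from -0.0472 to 0.0706 with 1 library left out. ZNF382 at 24 h became -0.00644 by library size, and ZNF350 at 48 h 0.12 with factors per gene. ZNF331 at 72 h became 0.0104 with DESeq2 size factors, 0.0431 with a minimum of 10 counts and 0.00723 by the Wald test, and ran from -0.0672 to 0.0424 with 1 library left out.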
